A study of Homo sapiens with 6 samples.

Results

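The core of the Notch pathway was followed here in BL2, an established human Burkitt lymphoma line, through 9 genes: the receptors NOTCH1 and NOTCH2, the receptor-cutting protease ADAM10, the DNA-binding factor RBPJ, its co-activators MAML1 and MAML2, the co-repressor SPEN, the receptor-binding ubiquitin ligase DTX1 and the classical target HES1. All probe sets that the platform annotation gives to 1 of these genes alone were taken, 23 of 54613 on the array, covering 9 of the 19775 genes named by such probe sets. Cells were electroporated either with scrambled siRNA (3 arrays) or with 4 pooled siRNAs against LEF1 (3 arrays), so both groups went through the same delivery of small RNA. Each of 3 labelled batches holds 1 array of each group, and the design text calls the replicates biological. The time between electroporation and harvest is not given in the sources used here, and the line is 1 tumour-derived line. Values are log2 expression, differences are LEF1 siRNA minus scrambled siRNA, and errors are SDs over 3 arrays unless another is named.

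Notch receptors are cut on contact with a ligand on a neighbouring cell, first by ADAM10 outside the membrane and then by gamma-secretase within it. The freed receptor domain enters the nucleus, joins RBPJ on DNA and recruits a Mastermind-like protein (MAML1 or MAML2), which turns on genes such as HES1. Without that domain, RBPJ sits with co-repressors that include SPEN, and in mature B cells NOTCH2 is the receptor known for directing marginal-zone fate. LEF1, the siRNA target, is a transcription factor that beta-catenin joins on DNA when Wnt signals arrive.

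The promoters of 3 of these genes are shown because they bear on the comparison in different ways. NOTCH2 is the gene whose signal moved, and HES1 is the standard readout of RBPJ. The RBPJ gene carries letters of both factors, though at different starts. Sequences are from RefSeq on GRCh38.p14, 250 bases before a start, read 5′ to 3′ on the gene's strand. Capitals mark GTGGGAA, the core bound by RBPJ, TGGGAA, which lies within it and was also searched alone, and CTTTGA and CTTTGT, both cores bound by TCF and LEF factors. Both strands were searched.
HES1, chr3:194135898-194136147, plus strand: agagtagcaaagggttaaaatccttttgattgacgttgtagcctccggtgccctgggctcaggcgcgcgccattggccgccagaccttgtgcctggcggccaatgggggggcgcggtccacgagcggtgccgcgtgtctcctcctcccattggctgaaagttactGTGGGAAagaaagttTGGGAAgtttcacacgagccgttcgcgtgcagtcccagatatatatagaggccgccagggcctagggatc
RBPJ, second listed start, chr4:26319496-26319745, plus strand: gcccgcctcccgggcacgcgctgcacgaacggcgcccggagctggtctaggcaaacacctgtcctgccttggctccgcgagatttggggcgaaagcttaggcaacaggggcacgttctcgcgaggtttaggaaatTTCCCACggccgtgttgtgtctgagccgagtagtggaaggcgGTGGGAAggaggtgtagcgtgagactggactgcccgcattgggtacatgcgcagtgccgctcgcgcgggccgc
RBPJ, first listed start, chr4:26163208-26163457, plus strand: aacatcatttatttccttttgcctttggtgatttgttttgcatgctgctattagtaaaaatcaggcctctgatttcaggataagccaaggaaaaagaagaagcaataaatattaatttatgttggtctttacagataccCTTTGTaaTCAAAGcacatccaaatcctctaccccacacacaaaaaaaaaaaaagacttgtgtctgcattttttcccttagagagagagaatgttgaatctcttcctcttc
NOTCH2, chr1:120069663-120069912, minus strand: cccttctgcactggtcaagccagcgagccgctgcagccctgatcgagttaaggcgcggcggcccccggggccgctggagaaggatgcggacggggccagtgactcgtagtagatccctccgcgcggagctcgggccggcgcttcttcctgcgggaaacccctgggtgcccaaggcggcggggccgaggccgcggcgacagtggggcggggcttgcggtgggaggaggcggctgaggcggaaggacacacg

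HES1 holds 1 GTGGGAA, ending 79 bases before the start, and a further TGGGAA ending 65 bases before it. The second RBPJ start holds 2 GTGGGAA, 1 on each strand, which 0.174% of the 35116 promoters in the table matched or exceeded in number, while 5.43% held at least 1. TGGGAA was present in 20.8% of promoters. The first RBPJ start holds CTTTGT and, on the other strand, CTTTGA, with 2 bases between them. These occur in 13.7% and 11.2% of promoters. None of the 4 motifs lies in the NOTCH2 window. Of the 9 genes, 8 have a promoter in the table (12 starts in all, 5 of them for RBPJ), and DTX1 has none there. The other RBPJ starts hold none of the 4 motifs, and which start BL2 uses was not measured. As the start with 2 GTGGGAA was found by searching all 12, its 0.174% is not the rate for a start named beforehand. A match is a description of letters, not a measured site.

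LEF1 itself was lower in every batch, with differences of -2.87, -2.49 and -2.78 at its brightest probe set in batches 1, 2 and 3. Array medians lay between 6.89 and 6.96, and the median of all probe sets, 6.91, is used below as the mark under which a value may hold mostly background. The 7 B cell markers measured here averaged 11.47 to 11.69 on the scrambled siRNA arrays and 11.45 to 11.57 with LEF1 siRNA, and 1 of them at its brightest probe set, the CD10 gene MME, fell by 0.43 (limma adjusted p = 0.000605 with batch as block). Among their dimmer probe sets MS4A1, the CD20 gene, rose by 0.50 at 228599_at, BCL6 fell by 0.23 at 215990_s_at and MME fell by 0.25 at 203434_s_at (limma adjusted p = 0.000226, 0.0342 and 0.0204). Of 6 monocyte and macrophage markers 0 lay above that median, and the list averaged 6.51 to 6.61 with scrambled and 6.39 to 6.57 with LEF1 siRNA. For T and NK cell markers these were 4 of 8, 6.87 to 6.93 and 6.81 to 6.95, with 1 call, NCAM1, which fell by 0.25 (limma adjusted p = 0.0188 with batch as block). For epithelial and fibroblast markers they were 5 of 8, 6.87 to 6.92 and 6.88 to 6.97, with 0 calls and 0 also for monocytes. Among the dimmer probe sets of these lists, NCAM1 fell by 0.29 at 212843_at (limma adjusted p = 0.00764 with batch as block). Its other dimmer probe sets were not called. The highest mean level was 7.30 in the T and NK list and 8.04, at COL1A1, in the epithelial and fibroblast list. The median is therefore not a detection limit, and values above it may hold background too. The part of these markers in the results below was not tested. In bulk RNA of a culture, fewer cells with a transcript and less transcript per cell cannot be told apart.

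NOTCH2 was the only one of the 9 genes with a called difference. With batch as block, 2 of the 23 probe sets passed, both of NOTCH2 and both higher, which is 8.70% of them. Across the array 6.09% of probe sets were called in either direction, 4.58% higher and 1.51% lower. The calls are thus those of 1 gene. Without the block 0 of the 23 passed in limma, where 0.0183% of all probe sets did, and 2 of the 23 (8.70%, against 7.84% of all) had an unadjusted p below 0.05. With batch as block 8 of the 23 had one, which is 34.8% where 17.1% of all probe sets did. The calls come from limma with an adjusted p below 0.05 over all 54613 probe sets. Signal level is not matched in these shares, as 16 of the 23 (69.6%) lay above the median of all probe sets, against 50% of all. With dim probe sets left out, 3465 of 27307 were called with batch as block, while the Notch calls stayed at 2. The 23 also stand for only 9 genes. No excess for the core is therefore read from them.

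**Figure D1:**
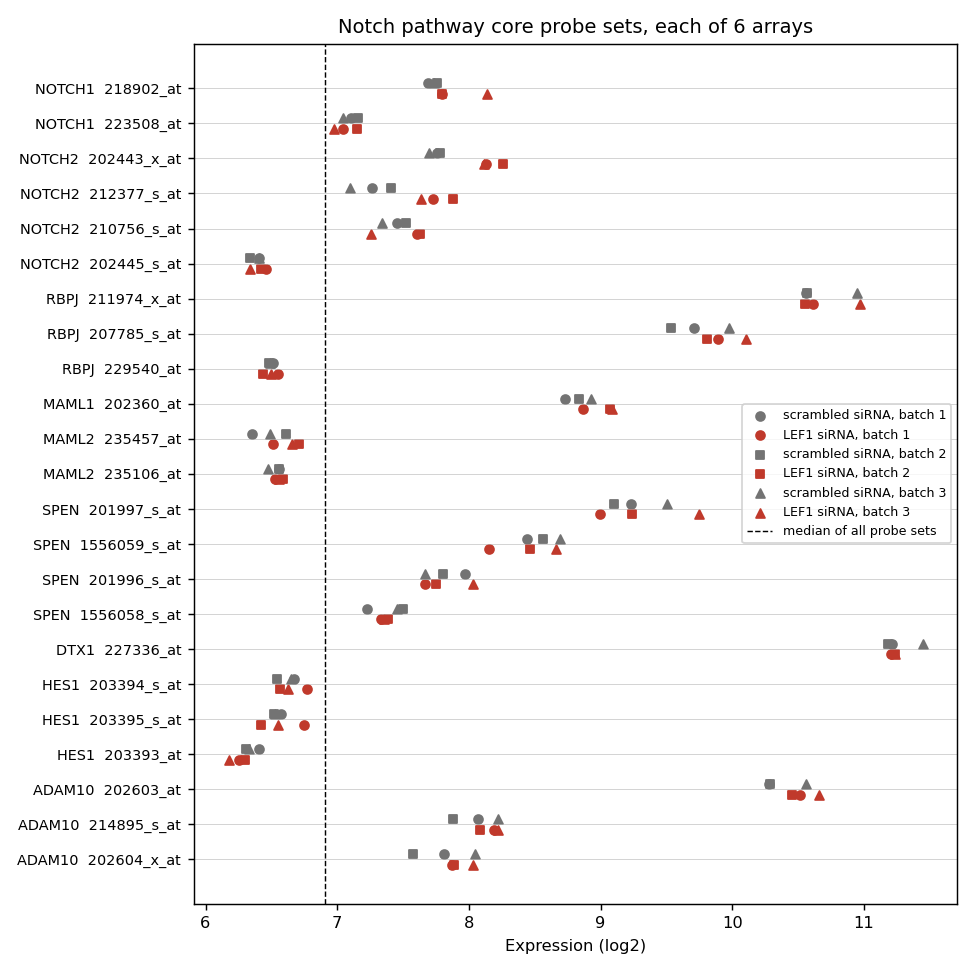
Expression (log2, horizontal axis) of the 23 probe sets of the Notch core on each array; grey symbols are scrambled siRNA, red symbols LEF1 siRNA, the symbol shape gives the batch, and the dashed line is the median of all probe sets, 6.91. The red symbols of NOTCH2 at 202443_x_at and 212377_s_at lie right of all grey ones, and HES1, MAML2 and 1 probe set each of NOTCH2 and RBPJ lie left of the line.

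At 202443_x_at, the brightest NOTCH2 probe set, the scrambled siRNA arrays read 7.76, 7.78 and 7.70 in batches 1, 2 and 3, and the LEF1 siRNA arrays 8.13, 8.26 and 8.12. Every LEF1 siRNA array was above every scrambled siRNA array. The mean went from 7.75 ± 0.04 (SD, n = 3) to 8.17 ± 0.08, a 1.34-fold rise of 0.42 (95% confidence interval 0.30 to 0.54), with within-batch differences of 0.37, 0.47 and 0.42. The limma adjusted p was 0.000730 with batch as block and 0.102 without. At 212377_s_at the values were 7.27, 7.41 and 7.10 with scrambled siRNA and 7.73, 7.88 and 7.64 with LEF1 siRNA. Again the groups did not overlap. That is a 1.404-fold rise of 0.49 (95% confidence interval 0.37 to 0.61), with 0.46, 0.47 and 0.53 within the batches (limma adjusted p = 0.000244 with batch as block, 0.170 without). With scrambled siRNA both called probe sets, at means of 7.75 and 7.26, lay below the 8.04 of COL1A1. How much of their signal is background was not tested.

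The other NOTCH2 probe sets did not follow. 210756_s_at read 7.46, 7.52 and 7.34 with scrambled siRNA and 7.60, 7.63 and 7.26 with LEF1 siRNA, so its groups overlapped and batch 3 went the other way. Its difference was 0.05 (95% confidence interval -0.08 to 0.19, limma adjusted p = 0.765 with batch as block), an interval that does not meet those of the probe sets that rose. 202445_s_at, at 6.38 ± 0.04 and 6.41 ± 0.06, lay below the median of all probe sets on every array. Which part of the transcript each probe set reads is not given in the sources used here, so the disagreement cannot be assigned to a transcript form.

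NOTCH2 has near-identical partial copies, the NOTCH2NL genes, and a further probe set, 227067_x_at, is annotated to NOTCH2 together with 4 of them. It was kept out of the 23. It read 8.19, 8.14 and 7.94 with scrambled siRNA and 8.74, 8.42 and 8.21 with LEF1 siRNA, a difference of 0.37 (95% confidence interval 0.23 to 0.51) that was largest in batch 1, at 0.55, against 0.28 and 0.27 (limma adjusted p = 0.00402 with batch as block, 0.5 without, where it was not called). Signal from the copies cannot be told apart from NOTCH2 there, and the suffix of 202443_x_at marks a probe set that its design lists as able to bind other transcripts. Probe sets 211974_x_at of RBPJ and 202604_x_at of ADAM10 carry the same suffix, so this limit holds for them as well.

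**Figure D2:**
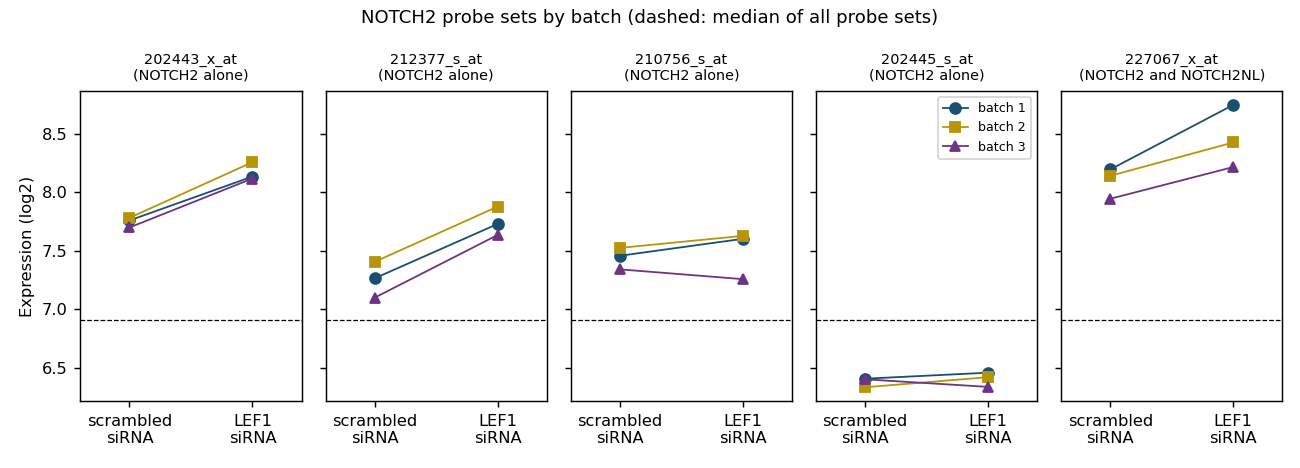
Expression (log2, vertical axis) of NOTCH2 at its 4 own probe sets and at the probe set it shares with NOTCH2NL copies; each line joins the arrays of 1 batch and the dashed line is the median of all probe sets. The lines of 202443_x_at, 212377_s_at and 227067_x_at rise in 3 of 3 batches, those of 210756_s_at and 202445_s_at in 2 of 3.

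The NOTCH2 rise kept its side of the threshold with batch as block under each scaling tried. It was 0.38 after quantile normalization, 0.40 with equal array medians, 0.38 after cyclic loess and 0.28 with scaling to the poly-A spike-ins (limma adjusted p = 0.00133, 0.00104, 0.00121 and 0.00654). Leaving out batch 1, 2 or 3 gave 0.45, 0.40 and 0.42 (limma adjusted p = 4.99e-05, 0.00673 and 1.73e-05). These fits hold fewer arrays and lean more on the spread pooled over all probe sets. A smaller p there does not show a tighter NOTCH2 difference. Spike-in scaling lowers every difference by 0.14 and moves the median of all probe sets from 0.01 to -0.13.

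NOTCH1, the other receptor of the core, gave no call. At 218902_at it read 7.69, 7.76 and 7.74 with scrambled siRNA and 7.80, 7.80 and 8.14 with LEF1 siRNA. The groups did not overlap, but the LEF1 siRNA array of batch 3 stood apart, and the within-batch differences were 0.11, 0.04 and 0.40. The mean difference was 0.18 (95% confidence interval 0.03 to 0.33, limma adjusted p = 0.168 with batch as block), and 0.07 without batch 3. The second probe set, 223508_at, went from 7.10 ± 0.05 to 7.06 ± 0.09, a difference of -0.04 (95% confidence interval -0.16 to 0.08). It was called lower only under spike-in scaling (limma adjusted p = 0.0485 with batch as block).

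ADAM10, which makes the first cut of an engaged receptor, was measured by 3 probe sets. The brightest, 202603_at, read 10.28, 10.28 and 10.56 with scrambled siRNA and 10.51, 10.45 and 10.66 with LEF1 siRNA. Each batch was higher with LEF1 siRNA, yet the scrambled array of batch 3 exceeded both other LEF1 siRNA arrays. The difference was 0.17 (95% confidence interval 0.04 to 0.29, limma adjusted p = 0.125 with batch as block). The others differed by 0.11 and 0.12, with batch 3 at -0.0022 and -0.02.

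RBPJ, on which the pathway converges, differed more between batches than between groups at its brightest probe set. At 211974_x_at the scrambled siRNA arrays read 10.56, 10.56 and 10.95 and the LEF1 siRNA arrays 10.61, 10.56 and 10.97. Batch 3 was high in both groups, batch means spread over 0.40, and the groups differed by 0.02 (95% confidence interval -0.10 to 0.14, limma adjusted p = 0.910 with batch as block). The second probe set, 207785_s_at, read 9.71, 9.54 and 9.98 against 9.89, 9.81 and 10.10. It was higher in 3 of 3 batches, by 0.20 (95% confidence interval 0.07 to 0.32), and lay just outside the threshold of the blocked fit, at a limma adjusted p of 0.0648, which became 0.0499 when batch 3 was left out. The third, 229540_at, stayed below the median of all probe sets at 6.50 ± 0.01 and 6.50 ± 0.06. The RBPJ probe sets thus give no single answer for the gene.

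The Mastermind-like co-activators were both uncalled. MAML1 at its single probe set read 8.73, 8.84 and 8.93 with scrambled siRNA and 8.87, 9.07 and 9.09 with LEF1 siRNA. It was higher in each batch, by 0.14, 0.23 and 0.16, while the groups overlapped (difference 0.18, 95% confidence interval 0.06 to 0.30, limma adjusted p = 0.0914 with batch as block). MAML2 lay below the median of all probe sets at both of its probe sets, with 6.48 ± 0.13 and 6.63 ± 0.10 at the brighter. Its difference of 0.14 (95% confidence interval 0.02 to 0.26, limma adjusted p = 0.194 with batch as block) was measured on dim signal, and the other probe set differed by 0.03.

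SPEN, a large co-repressor scaffold that binds RBPJ, was read by 4 probe sets that did not move together. The brightest, 201997_s_at, gave 9.23, 9.10 and 9.51 with scrambled siRNA and 8.99, 9.24 and 9.75 with LEF1 siRNA. It was lower in batch 1, by 0.24, and higher in batches 2 and 3, by 0.13 and 0.24, and averaged 0.05 (95% confidence interval -0.12 to 0.21). A similar spread was seen at 201996_s_at, whose batch differences ran from -0.30 to 0.36. 1556059_s_at was lower in 3 of 3 batches, by 0.14 on average (95% confidence interval -0.28 to -0.01, limma adjusted p = 0.257 with batch as block), and was called under spike-in scaling only (limma adjusted p = 0.00813). Its arrays read 8.44, 8.57 and 8.69 with scrambled siRNA against 8.15, 8.46 and 8.66. The fourth, 1556058_s_at, differed by -0.04. Batch and array differences at SPEN were therefore wider than the difference between groups.

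DTX1, a ubiquitin ligase that binds the inner part of Notch receptors and is itself a known Notch target in lymphocytes, gave a signal above that of 97.0% of all probe sets. It read 11.21, 11.18 and 11.45 with scrambled siRNA and 11.21, 11.23 and 11.23 with LEF1 siRNA. A single array, scrambled siRNA in batch 3, was high, and the LEF1 siRNA arrays had an SD of 0.02. The difference of -0.05 (95% confidence interval -0.19 to 0.08, limma adjusted p = 0.776 with batch as block) became 0.03 without batch 3. Signal strength also depends on the probes, so this does not rank DTX1 among genes.

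HES1, a repressor gene that RBPJ switches on in many cells, lay below the median of all probe sets at each of its 3 probe sets on each array. The brightest, 203394_s_at, read 6.67, 6.54 and 6.65 with scrambled siRNA and 6.77, 6.57 and 6.63 with LEF1 siRNA. The groups overlapped and the difference was 0.03 (95% confidence interval -0.09 to 0.16, limma adjusted p = 0.856 with batch as block). At 203393_at, the dimmest, the values were 6.40, 6.31 and 6.33 against 6.25, 6.30 and 6.17. The LEF1 siRNA arrays were the lower ones without overlap, by 0.11 (limma adjusted p = 0.402 with batch as block, and 0.0167 under spike-in scaling). Values this low may hold mostly background, so the lack of a call at the probe sets of HES1 does not show that its transcript was steady.

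**Figure D3:**
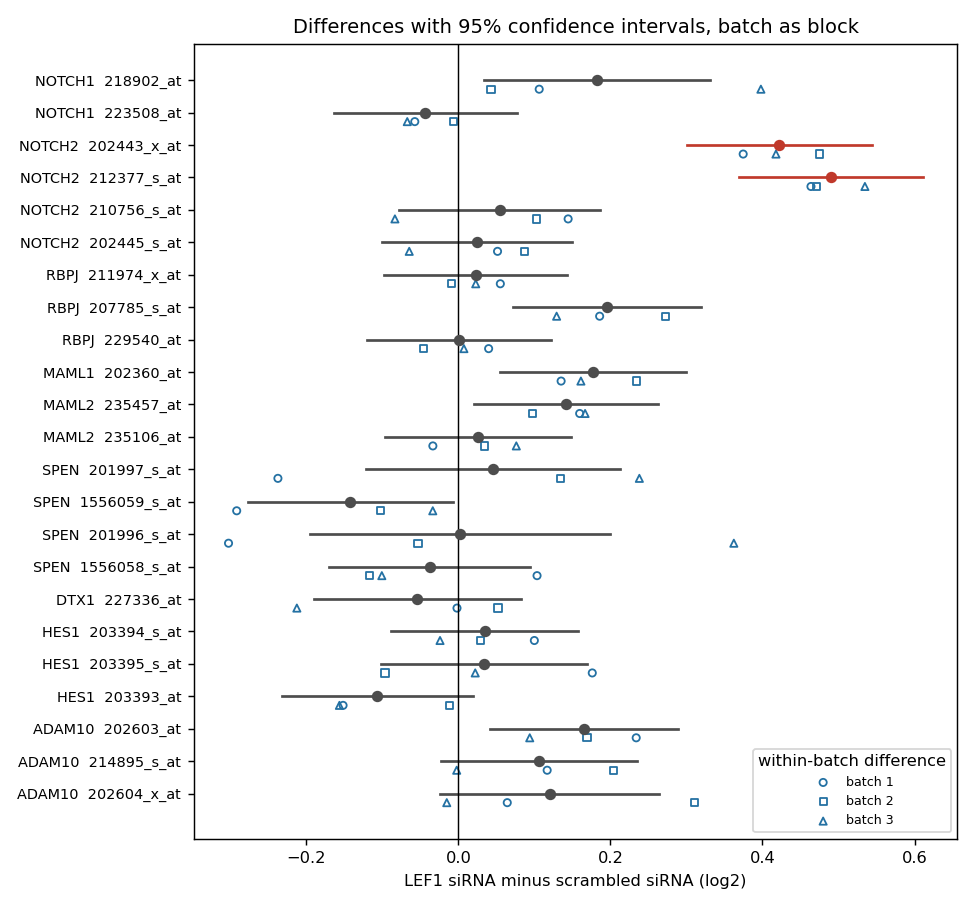
LEF1 siRNA minus scrambled siRNA (log2, horizontal axis) for each of the 23 probe sets; filled circles and bars are the mean difference and its 95% confidence interval with batch as block, red where the adjusted p is below 0.05, and open symbols are the 3 within-batch differences. The intervals of 202443_x_at and 212377_s_at, from 0.30 to 0.54 and from 0.37 to 0.61, are the ones in red, and the open symbols of SPEN at 201996_s_at lie farthest apart.

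Over the 23 probe sets, 7 were higher in 3 of 3 batches (30.4%, against 22.1% of all probe sets) and 3 were lower in 3 of 3 (13.0%, against 14.4%). Groups did not overlap at 4 of them, NOTCH2 at both called probe sets, NOTCH1 at 218902_at and HES1 at 203393_at, which is 17.4% where 12.5% of all probe sets had separate groups. The median difference over the 23 was 0.03, against 0.01 over all probe sets. Batch means spread more widely than the groups differed at 20 of the 23 (87.0%, against 78.8% of all). The exceptions were NOTCH2 at both called probe sets and HES1 at 203393_at. Batch 3 had the highest batch mean at 11 of the 23 (47.8%, against 37.4% of all), among them RBPJ, ADAM10 and SPEN at their brightest probe sets. None of these shares was matched for signal level.

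Genes around this core were taken from 6 lists by role, with the brightest probe set for each gene. Of 60 measured genes 5 rose and 2 fell with batch as block, and 0 passed without block. Across all genes at their brightest probe set, 6.73% rose and 1.7% fell. Of the 60 genes 8 lay below the median of all probe sets, against 7144 of all 19775 genes, so these shares are not matched for signal level. In the list of proteases that process receptors and ligands, 2 of 7 rose. NCSTN, the nicastrin subunit of gamma-secretase, went from 9.33 ± 0.13 to 9.66 ± 0.26, a rise of 0.33 (limma adjusted p = 0.00617 with batch as block). APH1B, another gamma-secretase subunit, rose by 0.22 (limma adjusted p = 0.0301), with 0.23, 0.22 and 0.22 in the batches. A dimmer probe set of APH1B differed by 0.05, and one of NCSTN below the median of all probe sets by -0.01. The median of this list was 0.18, against 0.02 over all genes at their brightest probe set.

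Among 11 ubiquitin ligases and endocytosis genes 1 rose, where 6.73% of all genes did. MIB1, which ubiquitinates Notch ligands in the cell that sends the signal, went from 9.53 ± 0.16 to 9.77 ± 0.20, a rise of 0.24 (limma adjusted p = 0.0226 with batch as block). Of its 3 other probe sets 224725_at rose by 0.48 and 224722_at by 0.34, while 224726_at differed by 0.13 (limma adjusted p = 0.000659, 0.00480 and 0.374). In the nuclear co-activator and co-repressor list 2 of 13 rose, against the same 6.73%. EP300, the p300 acetyltransferase that Mastermind proteins recruit, rose by 0.38 (limma adjusted p = 0.00671 with batch as block), with 0.18, 0.61 and 0.34 in the batches. Its dimmer probe set differed by 0.02. KAT2B, the acetyltransferase PCAF, rose by 0.26 from 7.36 ± 0.25 (limma adjusted p = 0.0342).

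Of 16 genes in the list of transcriptional targets 2 fell and 0 rose, where 1.7% of all genes fell and 6.73% rose. Whether Notch drives any of these genes in BL2, HES6 included, was not tested. HES6, a relative of HES1 that can oppose it, fell by 0.24 from 9.22 ± 0.11, with -0.31, -0.25 and -0.16 in the batches (limma adjusted p = 0.0251 with batch as block). IL7R, the interleukin-7 receptor and a Notch target in T cells, fell by 0.34 (limma adjusted p = 0.0155). Batch 1 gave -0.60, and batches 2 and 3 -0.23 and -0.18, and its second probe set fell by 0.28. The median difference of this list was 0.07, and 5 of 16 lay below the median of all probe sets.

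None of 7 ligands and other receptors and none of 6 sugar transferases acting on the receptors passed with batch as block. NOTCH4 differed by 0.16 and the ligand gene DLL1 by 0.14 (limma adjusted p = 0.136 and 0.209). EOGT, which adds a sugar to receptor repeats, differed by 0.16 and LFNG, the lunatic fringe enzyme, by -0.08 (limma adjusted p = 0.146 and 0.582). The medians of these lists were 0.04 and -0.01.

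Genes not called at their brightest probe set could still pass at a dimmer one, and these 3 were picked out after their values were seen. Over all probe sets 6.09% were called with batch as block. FBXW7, a ubiquitin ligase subunit that marks the cut receptor for decay, rose by 0.30 at 229419_at (limma adjusted p = 0.00650 with batch as block). Its brightest probe set differed by 0.02 and its others by -0.06 and 0.08. MAML3, the third Mastermind-like gene, rose by 0.39 at 242794_at, which lies below the median of all probe sets (limma adjusted p = 0.00106). Its brighter probe sets differed by -0.01 and -0.05. TBL1XR1, a co-repressor subunit, fell by 0.34 at 222634_s_at (limma adjusted p = 0.0192). Its brightest probe set differed by 0.13, and no other probe set of these genes was called.

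The calls of rises in these lists varied with the scaling and with the arrays included. After quantile normalization, equal medians and cyclic loess 2, 3 and 4 genes rose in place of 5, while 2 fell each time. With spike-in scaling 1 rose, EP300 (limma adjusted p = 0.0309 with batch as block), and 11 fell. Leaving out batch 1, 2 or 3 gave 5, 0 and 7 that rose and 0, 1 and 2 that fell, so no rise was called without batch 2. The differences themselves were then 0.22 for APH1B, 0.27 for MIB1, 0.28 for NCSTN, 0.26 for EP300 and 0.16 for KAT2B. APH1B lost its call in each of those 4 scalings, with limma adjusted p of 0.0670, 0.0632, 0.0632 and 0.308, and without any 1 batch, where its difference stayed at 0.22. Of the 4 scalings MIB1 at its brightest probe set passed after cyclic loess alone (0.0421, against 0.0502, 0.0528 and 0.227). There it was lost without batch 1, 2 or 3 (0.0593, 0.0615 and 0.0727) with differences of 0.23, 0.27 and 0.22. KAT2B was lost after quantile normalization, spike-in scaling and without batch 2 (0.0525, 0.196 and 0.342). NCSTN was lost under spike-in scaling (limma adjusted p = 0.0525) and without batch 2 (0.0683), and EP300 without batch 2 (0.0799). HES6 was lost without batch 1 or 2 (0.112 and 0.128) and IL7R without batch 1 (0.113). NOTCH2 at its brightest probe set passed in each of these settings. Dimmer probe sets of the list genes were not followed through them. Among those is MIB1 at 224725_at, which rose by 0.48 (limma adjusted p = 0.000659 with batch as block), so this does not set NOTCH2 apart from MIB1.

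**Figure D4:**
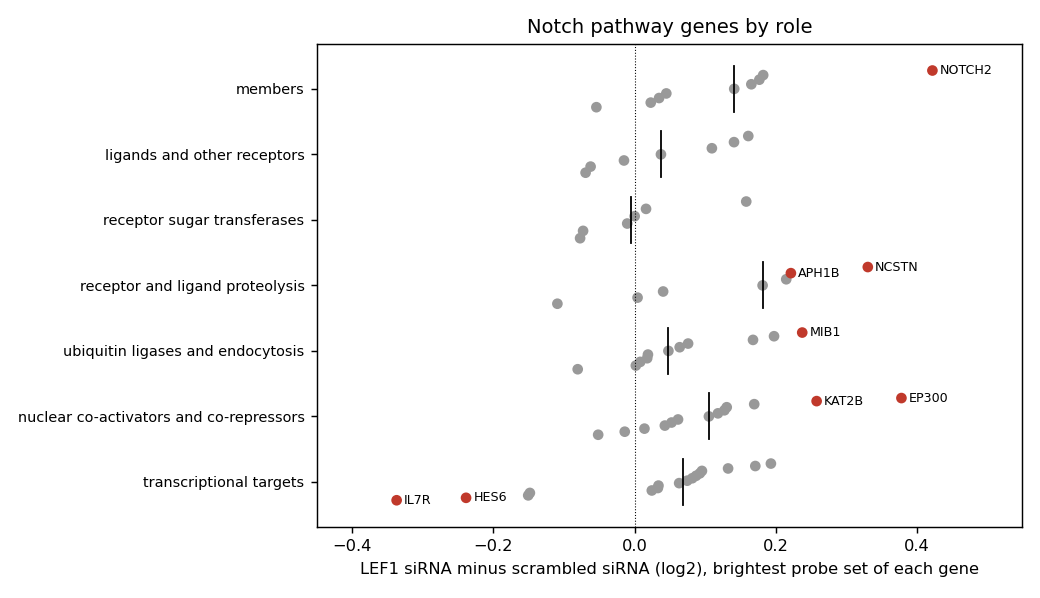
LEF1 siRNA minus scrambled siRNA (log2, horizontal axis) at the brightest probe set of each gene, by role; red points passed with batch as block and are named, grey points did not, and black bars are list medians. NOTCH2 at 0.42 lies farthest right and IL7R at -0.34 farthest left.

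The genes whose pattern over the 6 arrays lay nearest to NOTCH2 were sought among probe sets above the median of all probe sets. The measure was the root mean square difference between profiles centred on their own means. They were PRKCB, a kinase of B cell receptor signalling, at 0.0316, TRAPPC11 at 0.0339, CAAP1 at 0.0389, AMPD3 at 0.0399 and FAM200A at 0.0425 log2 units. Their own differences were 0.39, 0.41, 0.41, 0.48 and 0.39. The search picks profiles with a difference near that of NOTCH2, so these values are not a separate result. The same search from HES1 is not described, because its profile lies below the median of all probe sets.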

How the data were processed

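Per the labels' protocols, RNA of 6 BL2 cultures was amplified from its 3' ends, which is what the arrays mainly read. The authors deposited log2 values for 54675 probe sets, 1 from each array; background correction and normalization are not given in the sources used here, and the log2 scale was read from the range of 5.45 to 15.0. Leaving out 62 control probe sets left 54613. Of these, 41091 had 1 gene, 1801 several and 11721 none; genes were named from the first kind only. Array number limits the precision.

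Differences were fitted with limma 3.58.1 (R 4.3.3) without block and with batch as block, two-sided, with Benjamini-Hochberg adjustment over all probe sets. Batch labels pair the arrays, whose deviations from group means correlated at 0.477, 0.493 and 0.621 within batches 1, 2 and 3 (across probe sets, which are not independent). Residual degrees of freedom were 4 and 2, prior ones 4.07 and 12.0. The fits were tested on simulated data.

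Every member was named at its brightest probe set. Pathway genes were named where they passed with batch as block, or else the 2 with the smallest p per list. For likeness the 5 nearest genes with 1-gene probe sets above the median were named. Members and lists were chosen with earlier results of these data known. Some genes of the lists are not reported here. Alternatives covered scaling, dim probe sets, probe sets per gene, the eBayes prior, the block, and leaving out arrays or batches. Figures used matplotlib 3.10.9 in Python 3.11.15.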

Additional observations from a re-analysis of the deposited data

How the results depend on the processing

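The 2 Notch core calls with batch as block were kept in count after quantile normalization, equal array medians and cyclic loess, without dim probe sets, with a trended robust prior and without batch 1 or 2, and the count became 3 without batch 3. With 1 probe set per gene the count was 1, and with spike-in scaling it was 5, of which 3 were lower. Without a replicate block it was 0, and with the replicate block the paired fit raised the count without block from 0 to 2. Over all probe sets the fit with batch as block called 3328, against 10 without the replicate block, 1949 with 1 probe set per gene, 13508 with spike-in scaling and 1407 without batch 2. Leaving out 1 array gave 1407 to 3880 there. With batch as block this repeats the fit without its batch, as the array left in that batch has no partner, so it is not a separate check. The 10 calls without block became 3328 with the replicate block, 5 with 1 probe set per gene, 23 after quantile normalization or cyclic loess, 6 with the trended robust prior, and 0, 0 and 4 without batch 1, 2 or 3. They ranged from 0 to 8 when 1 array was left out.

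Small differences of uncalled genes changed sign at their brightest probe sets. Under spike-in scaling these were RBPJ (-0.12), HES1 (-0.10) and SPEN (-0.094), in both fits. SPEN was -7.73e-05 after quantile normalization and -0.051 without batch 3, and DTX1 was 0.025 without batch 3. Leaving out 1 array, without block, gave DTX1 -0.10 to 0.029, HES1 -0.023 to 0.079, RBPJ -0.11 to 0.15 and SPEN -0.17 to 0.21. With batch as block it gave DTX1 -0.11 to 0.025 and SPEN -0.051 to 0.19, the same values as leaving out the batch. Dim signal limits what HES1 and MAML2 can show.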
